A study of Mus musculus with 20 samples.

Results

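Transcripts of mouse macrophages pretreated with dimethyl itaconate (DI) were compared with those of control (Ctrl) macrophages 6 h after stimulation with LPS and IFNg. The comparison uses 4 of the 20 libraries of the series, picked by their labels alone: 2 of DI cells and 2 of Ctrl cells, all at 6 h. Every gene was taken. The count table holds 22165 genes, of which 10663 had enough reads to be tested. Both groups were WT C57BL/6 macrophages derived from bone marrow over 7 days with m-CSF, the growth factor that drives this differentiation. The DI group, whose treatment label reads "Demethyl Itaconate", was given 250 µM of the compound for 12 h and was then stimulated. The Ctrl group was stimulated without it, and the labels do not say whether it was given a vehicle. Both groups therefore carry the stimulus: LPS, a bacterial cell wall component sensed by TLR4, and IFNg, the cytokine that primes macrophages. The labels do not say that the 2 libraries of a group came from separate mice or cultures. The p-values therefore measure only the spread between libraries of a group, estimated over all 20, which may be technical.

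Itaconate is made in activated macrophages by the enzyme ACOD1 from an intermediate of the citric acid cycle, and DI is its membrane-permeable dimethyl ester. DI is an electrophile that reacts with thiols such as glutathione. It can also modify KEAP1, the protein that keeps the transcription factor NRF2 low, and NRF2 then turns on genes of glutathione synthesis, NADPH supply, detoxification and heme breakdown through antioxidant response elements (AREs) in their promoters. The inflammatory response to LPS runs through NF-kB in waves: primary genes such as Tnf and the Cxcl chemokines are switched on directly, and a secondary wave that includes Il6 and Il12b also needs IkBz, a nuclear NF-kB cofactor encoded by Nfkbiz. The title of the series names this secondary wave as the process that DI inhibits.

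Promoters of 5 NRF2 target genes that were higher in DI cells are shown because each holds the ARE core searched for, TGACNNNGC or its other-strand form GCNNNGTCA, in capitals. Each run is the 150 bases before the gene's start, 5′ to 3′ on the gene's strand, from RefSeq's GRCm38.p6. They lie at chr1:21240435-21240584 (plus strand, Gsta3), chr3:122245407-122245556 (plus, Gclm), chr4:116685449-116685598 (plus, Prdx1), chr10:82859056-82859205 (plus, Txnrd1) and chrX:74428881-74429030 (minus, G6pdx).
Gsta3: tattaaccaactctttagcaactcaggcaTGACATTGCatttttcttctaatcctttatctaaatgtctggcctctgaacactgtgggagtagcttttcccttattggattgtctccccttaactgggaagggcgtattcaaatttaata
Gclm: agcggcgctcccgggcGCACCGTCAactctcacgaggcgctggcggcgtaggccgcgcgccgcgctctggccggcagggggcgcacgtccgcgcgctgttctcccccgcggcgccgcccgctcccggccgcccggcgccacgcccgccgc
Prdx1: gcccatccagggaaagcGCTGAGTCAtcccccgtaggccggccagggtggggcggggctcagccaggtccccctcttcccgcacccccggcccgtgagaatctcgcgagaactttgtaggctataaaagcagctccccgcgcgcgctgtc
Txnrd1: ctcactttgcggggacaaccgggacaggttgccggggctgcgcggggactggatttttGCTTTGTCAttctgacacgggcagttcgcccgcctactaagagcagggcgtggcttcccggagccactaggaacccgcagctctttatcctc
G6pdx: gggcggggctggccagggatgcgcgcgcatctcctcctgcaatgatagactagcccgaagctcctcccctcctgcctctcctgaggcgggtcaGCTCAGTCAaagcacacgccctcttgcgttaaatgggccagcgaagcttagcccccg
In promoter windows of 300 bases (250 before the start and 50 after it), the core occurred in 12.4% of all 32851 promoters. Counted by gene it occurred for 11 of the 30 NRF2-system genes with a RefSeq promoter that were higher in DI cells (36.7%), for 19.6% of all 449 genes higher in DI cells, for 17.2% of the 760 lower ones and for 17.0% of the 8484 tested genes. The letters TGAC are shared with sites of AP-1-type factors, and a match is a description of these letters and not a bound site.

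The NF-kB motif (kB, searched on both strands by its usual consensus) was found in promoters of inflammatory genes on both sides of the comparison. Those of Cxcl1, Cxcl2 and Cxcl3, which were higher in DI cells, are set beside those of Il6 and Ebi3, which were lower, with the motif in capitals. The windows are again the 150 bases before the start in RefSeq's GRCm38.p6, all on the plus strand: chr5:90891095-90891244, chr5:90903749-90903898, chr5:90785951-90786100, chr5:30012964-30013113 and chr17:55952473-55952622.
Cxcl1: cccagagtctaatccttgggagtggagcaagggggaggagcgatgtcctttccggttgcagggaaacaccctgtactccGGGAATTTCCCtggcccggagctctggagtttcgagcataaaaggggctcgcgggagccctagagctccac
Cxcl2: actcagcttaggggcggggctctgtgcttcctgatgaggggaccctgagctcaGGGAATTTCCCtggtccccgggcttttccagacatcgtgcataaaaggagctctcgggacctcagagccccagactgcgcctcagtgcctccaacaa
Cxcl3: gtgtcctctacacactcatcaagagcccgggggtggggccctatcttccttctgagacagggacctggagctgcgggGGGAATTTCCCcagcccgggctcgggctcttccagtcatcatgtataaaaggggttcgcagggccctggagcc
Il6: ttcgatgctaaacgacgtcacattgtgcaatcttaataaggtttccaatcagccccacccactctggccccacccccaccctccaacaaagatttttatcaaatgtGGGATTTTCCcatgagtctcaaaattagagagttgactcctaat
Ebi3: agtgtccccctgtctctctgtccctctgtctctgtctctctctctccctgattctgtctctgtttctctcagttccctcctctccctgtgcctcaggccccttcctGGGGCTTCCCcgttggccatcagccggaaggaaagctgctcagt
The 3 chemokine promoters hold the same run of letters in capitals. Over the 300-base windows the motif occurred for 3 of 5 NF-kB and IkBz list genes higher in DI cells and for 5 of 11 lower ones, against 6.25% of tested genes and 5.14% of all 27025 genes.

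Total counts at 6 h were 5273860 and 3982073 in DI libraries and 3655977 and 4144450 in Ctrl libraries. The DI libraries were of lower complexity: 11382 and 12356 genes had no read in them, against 10859 and 10676 in the Ctrl libraries. The estimate of reads per captured molecule was 4.75 and 6.39 in DI and 2.68 and 2.57 in Ctrl, which gives 1111401 and 622854 molecules in DI and 1365586 and 1610811 in Ctrl. All 10 DI libraries of the series lay above all 10 Ctrl libraries on this estimate, so library complexity and treatment cannot be told apart. Over 3852 well covered genes the median coefficient of variation between the 2 libraries was 19.1% in DI and 12.2% in Ctrl. The macrophage identity genes of a list of 25 summed to 19139 and 22009 CPM in DI and 20052 and 22155 CPM in Ctrl. Among the macrophage markers set for this check, Adgre1, Cd68, Lyz2 and Mertk were present in all 4 libraries without a called difference. The others of that set were called, Csf1r higher in DI and Itgam, Fcgr1 and Cd14 lower. Markers of B cells, T and NK cells, dendritic cells, mast cells and red cells each summed to at most 48.7 CPM in any library, with Cd3d, Cd3e, Flt3 and Cpa3 at 0 in all 4. All but the red cell sums were lower in DI. Dendritic markers had 13.8 and 19.6 CPM in DI and 44.9 and 48.7 CPM in Ctrl. Mast cell markers had 10.2 and 7.28 CPM in DI and 31.7 and 45.4 CPM in Ctrl, and T and NK markers 2.84 and 0.753 against 7.93 and 16.4 CPM. Ccr7, Hdc and Lck of these lists were called lower in DI, calls that depended on single libraries. Summed neutrophil markers reached 553 and 339 CPM in DI and 263 and 274 CPM in Ctrl, with S100a9 as the top gene and Ctsg at 0. Summed fibroblast and endothelial markers reached 34.1 and 44.7 CPM in DI and 213 and 199 CPM in Ctrl, mostly Kdr. The part of such cells in the results was not tested.

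At 6 h DI cells differed from Ctrl cells in 1513 of the 10663 genes tested, which is 14.2%. A gene was called at an adjusted p under 0.05 in edgeR's quasi-likelihood test, with Benjamini-Hochberg adjustment over all genes tested. In DI cells 559 genes were higher (5.24%) and 954 were lower (8.95%). These 2 shares are the background for each count of a list below. For every called gene the 2 DI libraries lay wholly above or wholly below the 2 Ctrl libraries. With 2 libraries per group this nearly follows from the call itself. Such separation, also stated for single genes below, is a description and no support beyond the call. The changes were large: 512 of the higher and 868 of the lower genes moved at least 2-fold, and 202 and 362 moved at least 4-fold. Of the lower genes 66 had no read in either DI library, while 7 of the higher genes had none in either Ctrl library. The split depends on scaling. With factors from genes of at least 32 CPM, which shift the median of all genes by 0.15 on the log2 scale, 732 were higher and 766 lower. Without Ctrl replicate 1, 750 genes were called (263 higher, 487 lower), and without Ctrl replicate 2, 890 (259 higher, 631 lower). Without DI replicate 2 there were 430 higher and 610 lower genes. In bulk RNA, fewer cells expressing a gene and less of its RNA per cell cannot be told apart.

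**Figure D1:**
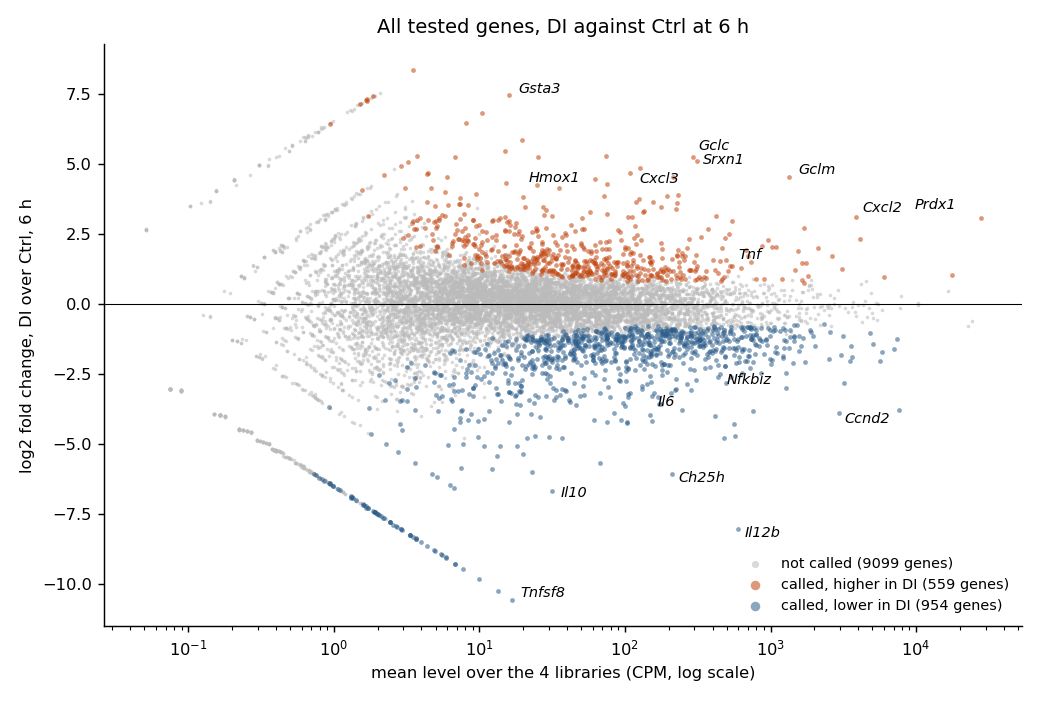
Each point is a tested gene, by its mean level over the 4 libraries (CPM, log axis) and its log2 fold change, DI over Ctrl, at 6 h. Orange marks the 559 genes called higher in DI, blue the 954 called lower and grey those not called; 51 tested genes with no read in the 4 libraries are not drawn. Gclc, Srxn1, Gclm and Prdx1 stand at the top at moderate to high levels and Il12b at the bottom, and the straight arms at the left edge are genes at 0 in one group.

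Genes of the NRF2 system were higher in DI cells. Over 6 lists of its targets and regulators, 82 of 93 listed genes could be tested, and 37 of them were higher in DI and 1 lower, against 5.24% and 8.95% of all genes tested. Their median log2 fold change was 1.22, with 63 above 0, against a median of −0.03 over all genes tested. These lists were drawn up with earlier results of these data known, so their direction is not independent evidence. At 0 h, before the stimulus, 34 of the 82 were already higher in DI.

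Genes of cystine uptake and glutathione synthesis were higher in 7 of 15 tested members, with none lower and a median of 1.70. Gclc (chromosome 9, bases 77754535 to 77794485 of GRCm38) encodes the catalytic subunit of glutamate-cysteine ligase, which carries out the first step of glutathione synthesis. It stood at 402 and 737 CPM in DI libraries and at 13.2 and 16.7 CPM in Ctrl libraries, a log2 fold change of 5.24 ± 0.37 (SE, adjusted p = 9.85e-10). For all genes n = 2 per group, and each SE is derived from the F statistic of the model of all 20 libraries. It is therefore not the spread of the 4 libraries at 6 h alone. Its partner Gclm, the modifier subunit whose promoter is shown above, stood at 1929 and 3217 CPM in DI against 128 and 97.1 CPM in Ctrl (4.52 ± 0.33, adjusted p = 1.19e-09). In both genes the lower DI library lay more than 10-fold above the higher Ctrl library. Slc7a11, the cystine importer that supplies the cysteine for glutathione, had 346 and 502 CPM in DI and 39.0 and 30.8 CPM in Ctrl, a difference of 3.60 ± 0.31. Gss, glutathione synthetase, and Gsr, which returns oxidised glutathione to its reduced form, were higher by 3.45 ± 0.47 and 2.94 ± 0.28. The other 2 called members, named after their values were seen, were the glutathione exporter Abcc1 and Ggct, an enzyme of glutathione turnover.

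Thioredoxin and peroxide defence genes were higher in 5 of 13 tested members and lower in none. Prdx1, a peroxidase that removes hydrogen peroxide, was among the most abundant transcripts of these cells, at 57246 and 41956 CPM in DI and at 6435 and 5583 CPM in Ctrl (3.05 ± 0.29, adjusted p = 8.73e-08). Srxn1, which repairs overoxidised peroxiredoxins, had 702 and 508 CPM in DI and 15.4 and 19.7 CPM in Ctrl (5.10 ± 0.33, adjusted p = 3.79e-10). The groups were far apart for both genes. Catalase (Cat) was higher by 3.83 ± 0.33 and Prdx6 by 1.79 ± 0.28. Txnrd1, the cytosolic thioredoxin reductase, had 816 and 672 CPM in DI and 218 and 157 CPM in Ctrl (1.99 ± 0.45, adjusted p = 0.0035), but its call was lost without Ctrl replicate 2 (1.76, adjusted p = 0.073). The other 8 members were not called, and the median of the list was 0.65, or 0.40 without DI replicate 1.

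The enzymes that supply NADPH, which reduces both glutathione and thioredoxin, were higher in 5 of 8 tested members. G6pdx, the entry enzyme of the pentose phosphate pathway, stood at 224 and 217 CPM in DI against 72.2 and 67.8 CPM in Ctrl (1.66 ± 0.36, adjusted p = 0.00253). Pgd, which catalyses the next NADPH-forming step, had 701 and 589 CPM in DI and 99.1 and 105 CPM in Ctrl, a difference of 2.66 ± 0.29. Taldo1, transaldolase of the same pathway, was higher by 2.49 ± 0.28. The calls of Tkt and Me1 depended on single libraries: each was lost when Ctrl replicate 1 was left out (adjusted p = 0.125 for Tkt and 0.137 for Me1), when Ctrl replicate 2 was left out (adjusted p = 0.138 and 0.128) and when DI replicate 1 was left out (adjusted p = 0.0942 and 0.421). Tkt was also lost without DI replicate 2 (adjusted p = 0.0506).

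Quinone, carbonyl and conjugate detoxification genes were higher in 10 of 20 tested members, with a median of 1.93 and none lower. Nqo1, the quinone reductase used as a standard readout of NRF2, had 51.1 and 26.0 CPM in DI and 0.358 and 0.896 CPM in Ctrl (5.86 ± 0.71, adjusted p = 2.41e-06). Gsta3, a glutathione transferase, was close to absent from Ctrl libraries, with 271 reads over both DI libraries against 1 read over both Ctrl libraries. Scaled to library size that is a ratio of 228, with a 95% counting interval of 40.6 to 9054. Cbr3, a carbonyl reductase, had 31.2 and 27.4 CPM in DI and 0.715 and 0.597 CPM in Ctrl, a difference of 5.45 ± 0.66. Ptgr1, which reduces electrophilic lipids, was higher by 3.75 ± 0.41, the aldo-keto reductase Akr1b8 by 3.85 ± 0.49 and the membrane glutathione transferase Mgst1 by 2.77 ± 0.32. Intervals from reads treat each read as a separate molecule, and no molecular identifiers were used. The estimated reads per molecule were 4.75 and 6.39 in DI and 2.68 and 2.57 in Ctrl. Such intervals are therefore too narrow even for counting error.

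Heme breakdown and iron handling genes were higher in 7 of 16 tested members, and Slc39a14, a metal ion importer, was the only one called lower, without keeping that call when DI replicate 2 (−1.45, adjusted p = 0.212) or Ctrl replicate 1 (−1.49, adjusted p = 0.231) was left out. Hmox1, heme oxygenase 1, stood at 141 and 97.6 CPM in DI against 6.79 and 4.18 CPM in Ctrl (4.46 ± 0.38, adjusted p = 1.46e-08). Slc40a1, which encodes ferroportin, the iron exporter, had 284 and 203 CPM in DI and 9.66 and 7.47 CPM in Ctrl (4.83 ± 0.38). Slc48a1, which moves heme out of the phagolysosome, was higher by 3.28 ± 0.33, and the ferritin light chain Ftl1 by 2.33 ± 0.28. Slc11a1, the phagosomal metal exporter NRAMP1, stood at 219 and 167 CPM in DI and 38.3 and 50.2 CPM in Ctrl, 2.12 ± 0.31 higher. Import of heme, its breakdown, iron storage and iron export were thus each represented among the genes higher in DI.

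Among 11 regulators of the NRF2 system 4 were higher in DI and none lower. Sqstm1, which encodes the autophagy receptor p62 that binds KEAP1, had 3568 and 2371 CPM in DI and 431 and 474 CPM in Ctrl (2.71 ± 0.37). Mafg, a small MAF protein that pairs with NRF2, was higher by 2.37 ± 0.27 and Osgin1 by 3.78 ± 0.56. Nfe2l2, the gene of NRF2 itself, was not called: it had 428 and 543 CPM in DI and 601 and 261 CPM in Ctrl, with overlapping groups (0.17 ± 0.35, adjusted p = 0.805).

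**Figure D2:**
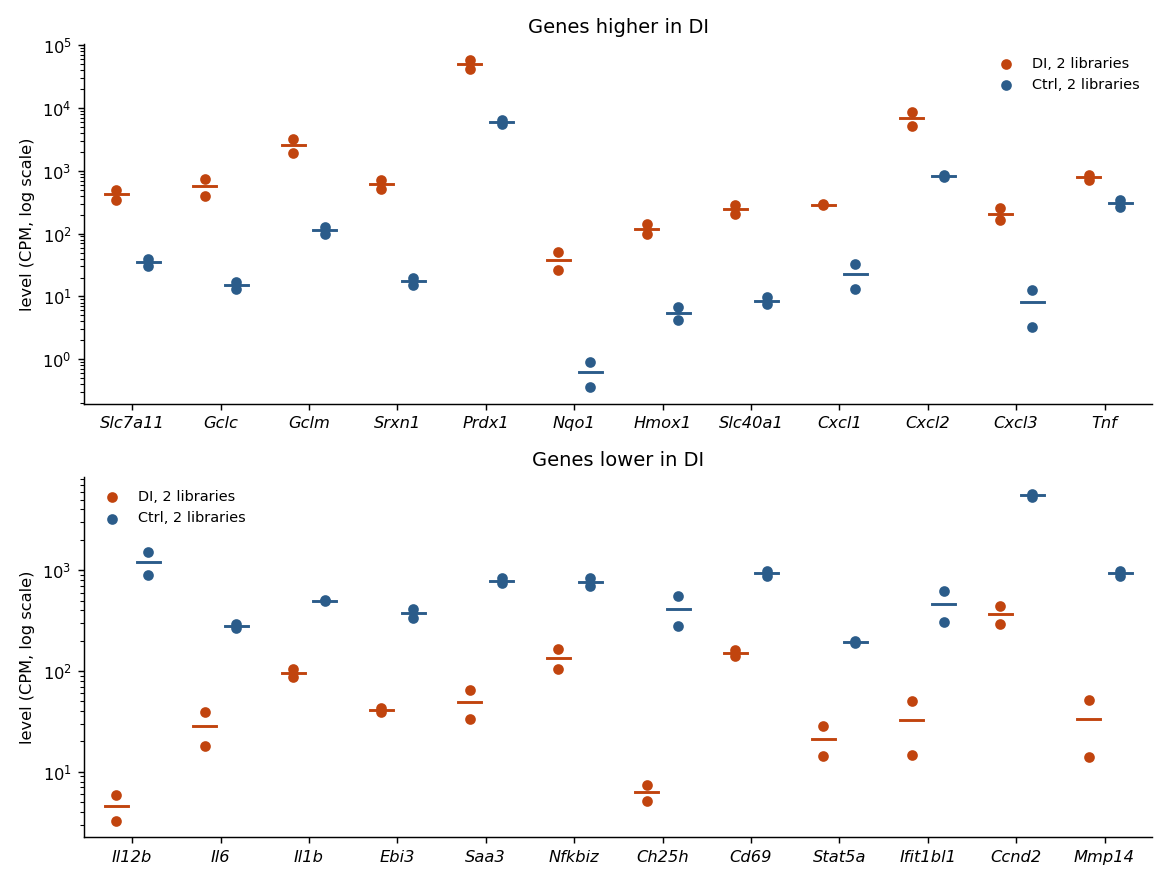
Level (CPM, log axis) of 12 genes higher and 12 genes lower in DI at 6 h; each point is a library, orange for DI and blue for Ctrl, and the bar is the mean of the 2 libraries. In all 24 genes, each picked from called genes, both DI libraries lie on one side of both Ctrl libraries. Examples are Gclc (402 and 737 CPM against 13.2 and 16.7 CPM) and Il12b (3.29 and 5.94 CPM against 1504 and 892 CPM).

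NF-kB primary response genes went both ways in DI cells. Of 32 tested, 5 were higher and 8 lower, against 5.24% and 8.95% of all genes tested, with a median of −0.66. The higher ones were Tnf, Cxcl1, Cxcl2, Cxcl3 and Plaur, the urokinase receptor, named after its value was seen because it completes the 5. Cxcl1, Cxcl2 and Cxcl3 are neighbouring genes on chromosome 5 (90891241 to 90893115, 90903871 to 90905938 and 90786103 to 90789600) and encode chemokines that attract neutrophils. Gene spans are from the GENCODE annotation of GRCm38, whose starts can differ from the RefSeq starts used for the promoter windows: the windows of Cxcl1 and Cxcl2 reach past the GENCODE starts. Cxcl1 had 299 and 280 CPM in DI and 13.2 and 32.9 CPM in Ctrl (3.64 ± 0.42, adjusted p = 1.19e-06). Cxcl2 was far more abundant, at 5168 and 8704 CPM in DI and 795 and 847 CPM in Ctrl (3.08 ± 0.31, adjusted p = 1.65e-07). Cxcl3 stood at 252 and 166 CPM in DI against 3.22 and 12.8 CPM in Ctrl (4.67 ± 0.49, adjusted p = 3.2e-07). Tnf, the central early cytokine of the LPS response, had 861 and 717 CPM in DI and 269 and 345 CPM in Ctrl (1.36 ± 0.26, adjusted p = 0.000771). In none of these 4 genes did the groups overlap. Among the 8 lower were Rel, an NF-kB subunit (172 and 174 CPM in DI, 896 and 716 CPM in Ctrl, −2.22 ± 0.27), the cytokine Il1b (−2.38 ± 0.33) and the dendritic maturation marker Cd83 (−2.58 ± 0.39). The count of 8 fell to 5 without DI replicate 2, without Ctrl replicate 1 and without Ctrl replicate 2.

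Cxcl1, Cxcl2 and Tnf followed courses over time that differed from that of Cxcl3. In DI, Cxcl1 had 0.530 and 0 CPM before the stimulus, then 32.1 and 34.6 at 1 h, 101 and 77.1 at 2 h, 152 and 131 at 4 h and finally 299 and 280 at 6 h. In Ctrl it had 0.240 and 0.806 CPM before the stimulus, then 174 and 129 at 1 h, 228 and 285 at 2 h, 179 and 142 at 4 h and finally 13.2 and 32.9 at 6 h. Cxcl1 was thus lower in DI at 1 and 2 h, overlapped between the groups at 4 h and was higher in DI at 6 h. Tnf had 184 and 190 CPM in DI and 816 and 643 CPM in Ctrl at 1 h, and 1522 and 977 CPM in DI against 1340 and 1432 CPM in Ctrl at 4 h. At that time its groups also overlapped. At 4 h Cxcl2 had 3807 and 4106 CPM in DI and 4020 and 2980 CPM in Ctrl. Cxcl3, in contrast, was higher in both DI libraries at every time. Before the stimulus it had 6.89 and 3.57 CPM in DI and 0.639 and 0.504 CPM in Ctrl. At 1 h it had 9.24 and 20.5 CPM in DI and 3.92 and 3.36 CPM in Ctrl, and at 2 h 28.3 and 31.5 CPM in DI against a mean of 21.5 CPM in Ctrl. At 4 h Cxcl3 had 87.5 and 85.3 CPM in DI and 32.8 and 29.2 CPM in Ctrl.

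**Figure D3:**
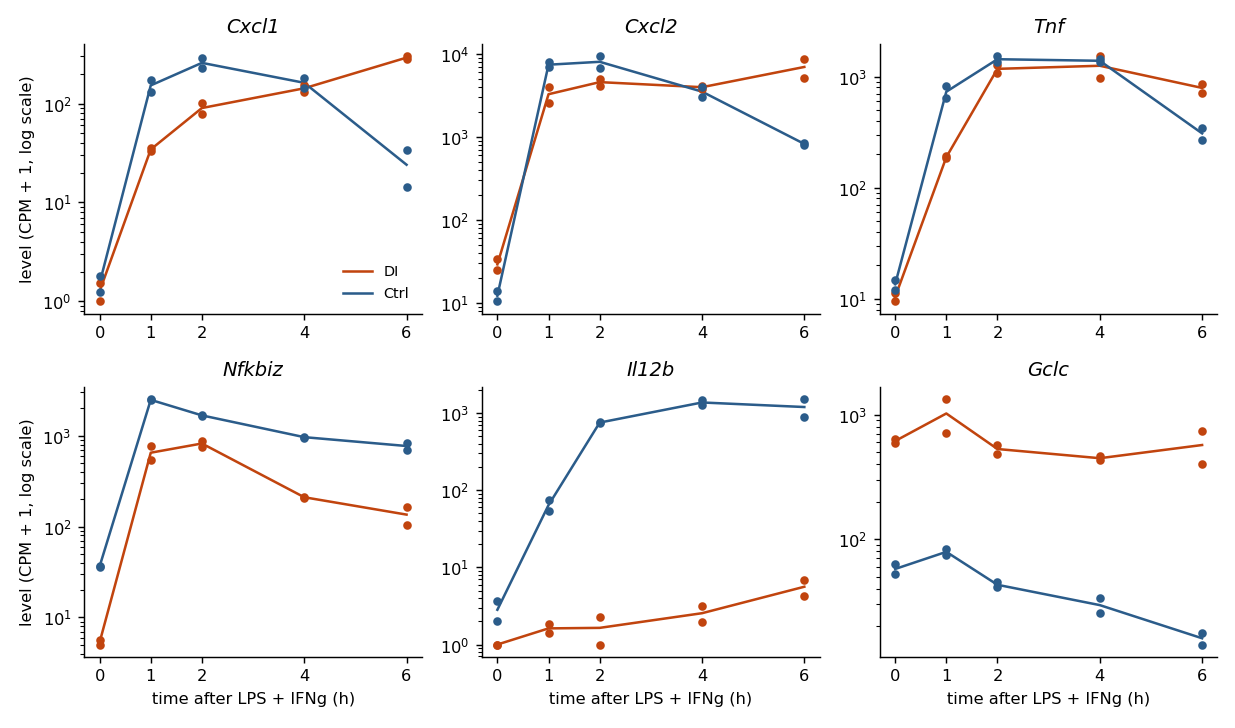
Level of 6 genes (CPM + 1, log axis) at 0, 1, 2, 4 and 6 h after LPS and IFNg; points are libraries, orange for DI and blue for Ctrl, and lines join the means of the 2 libraries. At 6 h Cxcl1, Cxcl2 and Tnf are higher in DI than in Ctrl, after lower means at 1 and 2 h, whereas Nfkbiz and Il12b are lower in DI and Gclc is higher in DI at every time.

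The secondary wave was low in DI cells. Of 8 tested genes of the list of IkBz and its dependent genes 6 were lower and none higher, against 8.95% and 5.24% of all genes. None had a positive log2 fold change, and the median was −3.28. Nfkbiz (chromosome 16, 55811375 to 55838899) had 104 and 165 CPM in DI and 839 and 702 CPM in Ctrl (−2.52 ± 0.27, adjusted p = 3.88e-07). Il12b (chromosome 11, 44400063 to 44414033) encodes the p40 subunit shared by IL-12 and IL-23 and was among the 12 genes with the largest falls. It had 3.29 and 5.94 CPM in DI and 1504 and 892 CPM in Ctrl (−8.05 ± 0.53, adjusted p = 9.85e-10). Il6, the acute-phase cytokine whose promoter is shown above, had 18.1 and 38.8 CPM in DI and 292 and 265 CPM in Ctrl (−3.30 ± 0.39, adjusted p = 1.92e-06). Ebi3, the other promoter shown with a lower level, encodes the subunit that pairs with p28 in IL-27 and had 42.5 and 38.8 CPM in DI and 336 and 409 CPM in Ctrl (−3.20 ± 0.29). Saa3, an acute-phase protein, had 64.1 and 33.7 CPM in DI and 739 and 829 CPM in Ctrl (−4.00 ± 0.41). The other called gene, named after its value was seen, was Edn1, the vasoconstrictor peptide endothelin 1. DI and Ctrl libraries were apart in every one of these genes.

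Other cytokines fell as well. Of 9 tested cytokines of the interleukin 6, 10 and 12 families 5 were lower and none higher, against 8.95% and 5.24% of all genes. Their median was −3.27, and −6.21 without DI replicate 1. Il10, the main anti-inflammatory cytokine of macrophages, had 1.03 and 0 CPM in DI and 52.6 and 71.7 CPM in Ctrl (−6.69 ± 0.84, adjusted p = 4.02e-06), and Il27, which encodes p28, had 501 and 313 CPM in DI and 1574 and 1685 CPM in Ctrl (adjusted p = 3.87e-05). Both inflammatory and anti-inflammatory cytokines were therefore among the genes that fell. Of the interleukin 1 family Il1b had 105 and 86.6 CPM in DI and 504 and 493 CPM in Ctrl, and Il18 fell by 2.30 ± 0.43. Il1f9, an IL-36 cytokine, was higher, with 97.1 and 214 CPM in DI and 35.8 and 28.7 CPM in Ctrl (2.27 ± 0.39). The receptor antagonist Il1rn overlapped between the groups (−0.08 ± 0.25, adjusted p = 0.879).

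Ligands of the TNF superfamily went against Tnf itself, with 5 of 9 tested lower (8.95% of all genes) and Tnf the only one higher (5.24%). Tnfsf8, the CD30 ligand, had no read in either DI library and 36.8 and 29.9 CPM in Ctrl. Its Ctrl mean was 45.5-fold above a floor of 3 counts per DI library. The floor treats each read as a separate molecule, though the DI libraries had an estimated 4.75 and 6.39 reads per molecule. The fall that these zeros can bound is therefore smaller. Tnfsf9, the 4-1BB ligand that costimulates T cells, had 6.16 and 10.2 CPM in DI and 67.6 and 64.8 CPM in Ctrl (−3.03 ± 0.46), and the apoptosis ligand Tnfsf10 (TRAIL) fell by 2.54 ± 0.37. Without DI replicate 1 the count of lower ligands was 3. Of all 22 chemokines tested, 7 were lower and only Cxcl1, Cxcl2 and Cxcl3 were higher, against 8.95% and 5.24% of all genes tested. The effect was more positive at 6 h than at 0 h for 5 of the 22 and more negative for 0. Over all genes tested these shares were 0.572% and 0.975%. The count of lower chemokines fell when any single library at 6 h was left out. Among the lower ones were the T cell attractant Cxcl9, at 2833 and 4010 CPM in DI and 10807 and 10402 CPM in Ctrl (−1.63 ± 0.34), and the monocyte attractants Ccl12 (−1.59 ± 0.27) and Ccl8 (−1.93 ± 0.36). Cxcl10, like Cxcl9 a ligand of CXCR3, had 5863 and 4939 CPM in DI and 4464 and 6053 CPM in Ctrl (0.04 ± 0.24, adjusted p = 0.948), so its groups overlapped. Ccl5 was not called either (−0.28 ± 0.26, adjusted p = 0.538).

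Feedback regulators of NF-kB and cytokine signalling were lower in 7 and higher in 3 of 28 tested members, against 8.95% and 5.24% of all genes. Tnip3, an inhibitor of NF-kB activation induced by LPS, had 306 and 254 CPM in DI and 2268 and 2264 CPM in Ctrl (−3.02 ± 0.26, adjusted p = 1.64e-08). Socs3, which restrains STAT3 signalling, had 204 and 125 CPM in DI and 586 and 554 CPM in Ctrl (−1.79 ± 0.37), and Birc2, a ubiquitin ligase of the TNF receptor complex, fell by 1.78 ± 0.32. Each of these genes was separated between the groups. The 3 higher calls were not stable: 1 was left without DI replicate 1 or without DI replicate 2, and none without Ctrl replicate 1 or Ctrl replicate 2.

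Interferon-responsive genes were lower without exception among the called members. Over the lists of type I interferon-stimulated genes and of IFNg-induced GTPases, 28 of 70 tested genes were lower and none was higher. The shares over all genes tested were 8.95% and 5.24%. The median of the 70 was −0.78, with 6 above 0. At 0 h, before the stimulus, 20 of the 70 were already lower in DI, against 2.17% of all genes tested. The effect was more positive at 6 h than at 0 h for 2 of the 70 and more negative for 0. Over all genes tested these shares were 0.572% and 0.975%. Usp18, which shuts off the interferon receptor, had 269 and 248 CPM in DI and 799 and 1344 CPM in Ctrl (−2.05 ± 0.30, adjusted p = 2.56e-05). Ifit1bl1, of the IFIT family of antiviral RNA-binding proteins, had 50.7 and 14.7 CPM in DI and 615 and 308 CPM in Ctrl (−3.80 ± 0.43). The nuclease Isg20 had 327 and 412 CPM in DI and 1691 and 1602 CPM in Ctrl (−2.16 ± 0.33), and Ifih1, the cytosolic RNA sensor MDA5, fell by 1.97 ± 0.35. All 4 were apart between the groups. Of the guanylate-binding proteins, which attack pathogen vacuoles, Gbp7 had 1721 and 2210 CPM in DI and 4702 and 4040 CPM in Ctrl (−1.15 ± 0.25) and Gbp8 fell by 2.09 ± 0.40. Ifnb1, the interferon itself, had few reads, with 9.45 and 0 CPM in DI and 7.87 and 3.29 CPM in Ctrl (adjusted p = 0.936). The 18 lower of 40 type I genes fell to 10 without Ctrl replicate 1 and 11 without Ctrl replicate 2, and the 10 lower of 30 IFNg-induced genes to 6 without Ctrl replicate 1.

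Transcription factors and kinases downstream of cytokine receptors were lower in 9 of 25 tested members and higher in none, against 8.95% and 5.24% of all genes. Stat3, which carries the signal of IL-6 and IL-10, had 513 and 556 CPM in DI and 2281 and 2372 CPM in Ctrl (−2.12 ± 0.26, adjusted p = 2.41e-06). Stat5a had 14.4 and 28.3 CPM in DI and 190 and 199 CPM in Ctrl (−3.20 ± 0.36, adjusted p = 7.43e-07). Irf8, a factor needed for macrophage identity and Il12b transcription, had 2644 and 2784 CPM in DI and 9212 and 8703 CPM in Ctrl (−1.72 ± 0.32). DI libraries were below Ctrl libraries in all 3. Without Ctrl replicate 1 the list had 4 lower members.

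Surface molecules that macrophages show to T cells were lower in 9 of 17 tested members and higher in none, with a median of −1.46. By comparison, 8.95% of all genes tested were lower and 5.24% higher. Slamf1, a self-ligand receptor of immune cells, had 3.29 and 1.70 CPM in DI and 141 and 126 CPM in Ctrl (−5.69 ± 0.69, adjusted p = 3.9e-06). Cd80, a ligand of CD28, had 1.03 and 0 CPM in DI and 21.1 and 31.1 CPM in Ctrl (−5.45 ± 0.82). The activation marker Cd69 had 160 and 142 CPM in DI and 881 and 974 CPM in Ctrl (−2.62 ± 0.30), and Cd200 fell by 2.68 ± 0.42. All 4 were far lower in both DI libraries. Peptide presentation changed less: 4 of 20 MHC class I genes were lower, but 3 without DI replicate 1, 1 without Ctrl replicate 1, 1 without Ctrl replicate 2 and none without DI replicate 2. None of 9 MHC class II genes was called.

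**Figure D4:**
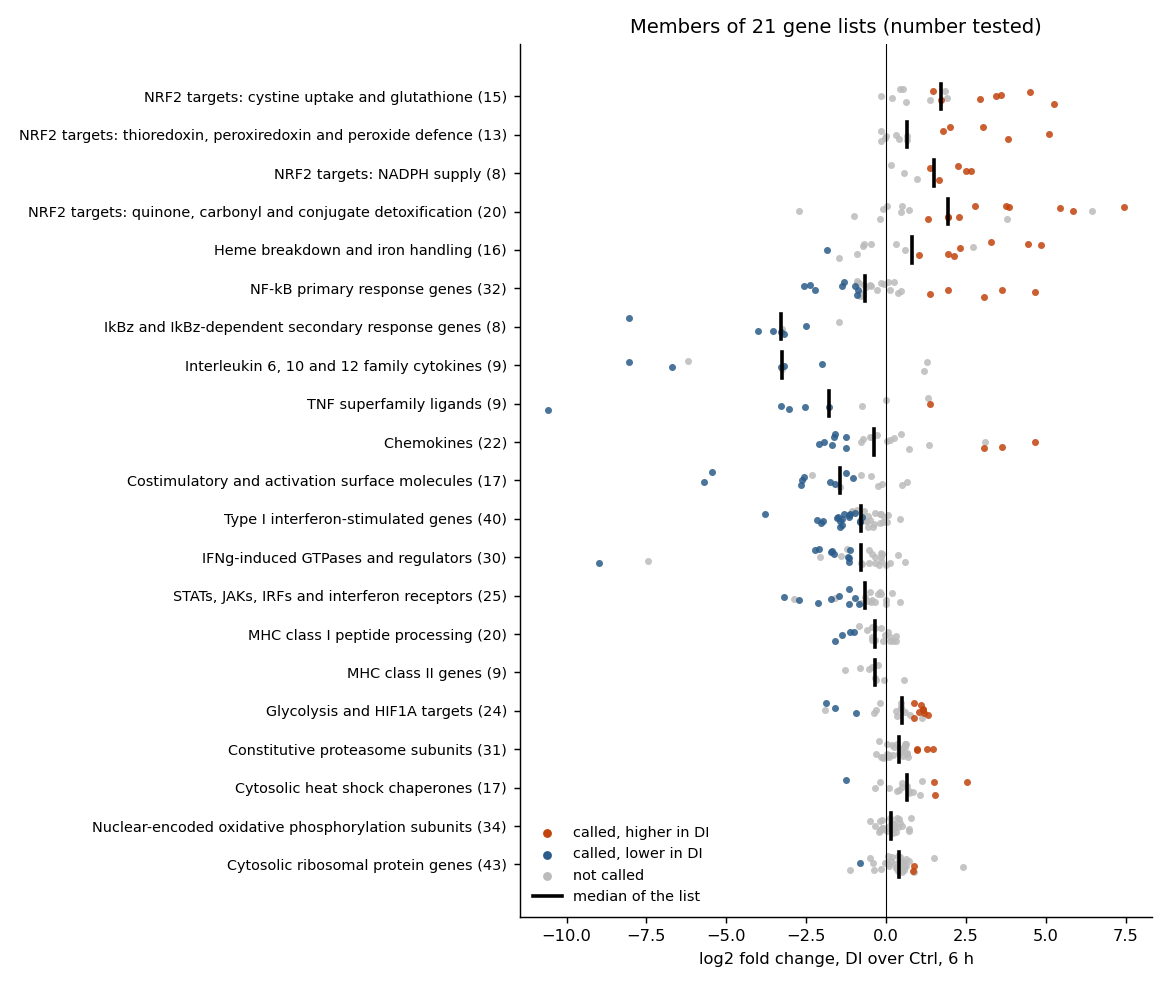
Log2 fold change, DI over Ctrl, at 6 h of the tested members of 21 gene lists, with the number tested in brackets; orange marks members called higher in DI, blue those called lower, grey those not called, and the black bar is the list's median. The NRF2 target lists sit right of 0, with medians of 0.65 to 1.93, and the lists of IkBz-dependent genes (−3.28), cytokines of the interleukin 6, 10 and 12 families (−3.27, or −6.21 without DI replicate 1) and costimulatory molecules (−1.46) sit left of it.

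Receptors and adaptors that sense microbes were lower in 8 of 24 tested members and higher in 2, against 8.95% and 5.24% of all genes tested. The nucleic acid sensors Tlr7 (31.6 and 15.8 CPM in DI, 156 and 159 CPM in Ctrl, −2.72 ± 0.39), Tlr3 (−2.54 ± 0.38) and Tlr9 (−1.41 ± 0.30) all fell. Myd88, the adaptor of most TLRs, had 135 and 79.2 CPM in DI and 330 and 321 CPM in Ctrl (−1.60 ± 0.32, adjusted p = 0.00108). Tlr4, the receptor of LPS, and Ikbkg, a subunit of the IkB kinase complex, were the 2 called higher, Tlr4 being named after its value was seen. Of these calls 1 was left without DI replicate 1 or Ctrl replicate 2 and none without Ctrl replicate 1. Of 24 scavenger and lectin receptors 5 were higher and 12 lower. The fungal receptors Clec4n (Dectin-2; 235 and 209 CPM in DI, 14.3 and 21.2 CPM in Ctrl, 3.64 ± 0.35) and Clec4d (2.04 ± 0.25) were higher, as was the scavenger receptor Stab1 (2.10 ± 0.30). Ms4a6c and Ms4a4c, of a family of 4-pass membrane proteins, fell by 1.97 ± 0.27 and 1.88 ± 0.27. Without DI replicate 2 the number of lower receptors was 5.

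Of 24 tested macrophage identity genes 10 fell and 3 rose in DI, against 8.95% and 5.24% of all genes tested. Their summed level, given above, is dominated by Cybb, a subunit of the phagocyte NADPH oxidase with a mean of 8725 CPM, and says little about the other members. Fcgr1, the high-affinity IgG receptor induced by IFNg, had 386 and 261 CPM in DI and 1031 and 955 CPM in Ctrl (−1.62 ± 0.29). Itgam (CD11b) had 134 and 96.8 CPM in DI and 315 and 398 CPM in Ctrl (−1.63 ± 0.35). Csf1r, the m-CSF receptor, was higher, with 300 and 256 CPM in DI and 103 and 131 CPM in Ctrl (1.25 ± 0.29, adjusted p = 0.00376), but not without Ctrl replicate 1 (1.09, adjusted p = 0.0827). The count of lower members was 3 without DI replicate 2 and 5 without Ctrl replicate 1 or without Ctrl replicate 2. Of the 3 higher calls 1 was left without Ctrl replicate 2 and none without Ctrl replicate 1.

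Matrix and adhesion genes were split, with 11 lower and 6 higher of 24 tested, against 8.95% and 5.24% of all genes. Mmp14, a membrane-bound collagenase, had 52.0 and 14.1 CPM in DI and 873 and 990 CPM in Ctrl (−4.80 ± 0.65, adjusted p = 1.22e-05). Mmp13, the secreted collagenase, had 905 and 665 CPM in DI and 6472 and 4747 CPM in Ctrl (−2.84 ± 0.31). The groups were clearly apart in both. The integrin chains Itga4 and Itgal fell by 2.88 ± 0.33 and 2.68 ± 0.33. Sele and Kdr, given next, are not among the 11 lower genes counted above. Sele, which encodes E-selectin, had no read in either DI library and 19.7 and 33.8 CPM in Ctrl. Its Ctrl mean was 36.5-fold above the floor of 3 counts, with the limit given for Tnfsf8. Kdr, the receptor that dominates the endothelial marker sum, had 5.34 and 15.3 CPM in DI and 213 and 178 CPM in Ctrl (−4.27 ± 0.48). Whether these reads came from macrophages or from other cells was not tested. Without Ctrl replicate 1 the list had 7 lower and 4 higher members, and without Ctrl replicate 2 it had 4 higher.

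Effector enzymes of activated macrophages gave no common direction. Acod1, the enzyme that makes itaconate, was among the most abundant transcripts, with 15443 and 22797 CPM in DI and 13391 and 14247 CPM in Ctrl, but was not called (0.47 ± 0.29, adjusted p = 0.323). Ptgs2, the inducible cyclooxygenase, overlapped between the groups at 4707 and 6427 CPM in DI and 4758 and 3779 CPM in Ctrl (adjusted p = 0.48). Nos2, which makes nitric oxide, had 285 and 335 CPM in DI and 1302 and 609 CPM in Ctrl (−1.62 ± 0.40, adjusted p = 0.00681). This call depended on single libraries: it was lost without DI replicate 1 (−1.52, adjusted p = 0.0605) and without Ctrl replicate 1 (−0.98, adjusted p = 0.216). Ch25h, which makes the antiviral sterol 25-hydroxycholesterol, had 5.13 and 7.36 CPM in DI and 554 and 277 CPM in Ctrl (−6.07 ± 0.54, adjusted p = 4.45e-08). Ptger4, a prostaglandin E2 receptor, had 11.5 and 9.34 CPM in DI and 172 and 143 CPM in Ctrl (−3.91 ± 0.42), whereas Ptger2, which binds the same ligand, was higher, with 19.7 and 13.3 CPM in DI and 2.15 and 2.69 CPM in Ctrl (2.76 ± 0.59).

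Hif1a, the hypoxia factor that supports glycolysis in activated macrophages, had 187 and 231 CPM in DI and 757 and 516 CPM in Ctrl (−1.61 ± 0.27, adjusted p = 0.00019). Pfkfb3, which makes the activator of phosphofructokinase, had 31.0 and 30.6 CPM in DI and 122 and 105 CPM in Ctrl (−1.88 ± 0.42). Of the 24 tested glycolysis and HIF1A target genes 8 were higher and 3 lower, against 5.24% and 8.95% of all genes tested. The 8 higher calls rested on few libraries, since 3 were left without DI replicate 1, 1 without Ctrl replicate 2 and none without Ctrl replicate 1. Pkm, pyruvate kinase, for example, had 828 and 585 CPM in DI and 314 and 315 CPM in Ctrl (1.17 ± 0.27) and was not called without DI replicate 1 (0.89, adjusted p = 0.0622) or without Ctrl replicate 1 (1.16, adjusted p = 0.0511). None of 34 nuclear-encoded oxidative phosphorylation genes was called in any of the 4 fits that left out a library at 6 h, nor in the fit to all.

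Several genes with the largest changes stood outside these groups. Ccnd2, the growth-promoting cyclin D2, had 293 and 437 CPM in DI and 5748 and 5265 CPM in Ctrl (−3.92 ± 0.28, adjusted p = 9.85e-10). Slc43a2, a transporter of large neutral amino acids, had 430 and 389 CPM in DI and 22.2 and 13.7 CPM in Ctrl (4.52 ± 0.34), and Slc22a4, the ergothioneine carrier, had 46.4 and 52.6 CPM in DI and 0.715 and 1.79 CPM in Ctrl (5.24 ± 0.53). Serpinb9b, a serine protease inhibitor, was higher by 5.27 ± 0.53. The groups were apart in all of these. Bhlhe41, a repressor of the circadian clock, had 166 reads over the DI libraries and 1 over the Ctrl libraries. That is a ratio of 140 after scaling to library size, with a 95% counting interval of 24.8 to 5558. This interval and that of Vdr below treat each read as a separate molecule and are too narrow even for counting error. Vdr, the vitamin D receptor, had 3 reads in DI and 145 in Ctrl, 57.4-fold lower with an interval of 19.2 to 281, and its call was lost without DI replicate 1 (adjusted p = 0.106), Ctrl replicate 1 (adjusted p = 0.119) or Ctrl replicate 2 (adjusted p = 0.0599). Il18rap, a chain of the IL-18 receptor, fell by 5.10 ± 0.62 and the actin-capping protein partner Rcsd1 by 5.38 ± 0.77.

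Genes that the stimulus induces in Ctrl cells were lower in DI more often than other genes, by their counts. Classes were set from Ctrl libraries at 0, 1 and 4 h, none of which is in the groups compared at 6 h. These libraries are in the same model, however, and help set the filter and each gene's spread. Classes and calls at 6 h are therefore not independent. Of 380 genes induced by 1 h, 41.6% were lower in DI at 6 h and 9.74% higher, with a median of −0.81. Of 1109 genes induced only by 4 h, 35.3% were lower and 4.06% higher, with a median of −0.79. Genes repressed by the stimulus went the other way: of 955, 2.72% were lower and 13.9% higher, with a median of 0.44. The 8219 genes in neither class were lower in 4.6% and higher in 4.19%. These shares were 1.84% and 1.67% without Ctrl replicate 1, 2.56% and 1.75% without Ctrl replicate 2, and the lower one was 2.57% without DI replicate 2. Without Ctrl replicate 1 the lower shares of the first 2 classes were 26.6% and 19.7%, and without DI replicate 2 that of the late class was 22.7%. The higher share of the early class was 4.47% without Ctrl replicate 2. That of the repressed class was 7.43% without Ctrl replicate 1 and 6.91% without Ctrl replicate 2, and its median was 0.29 without DI replicate 2.

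**Figure D5:**
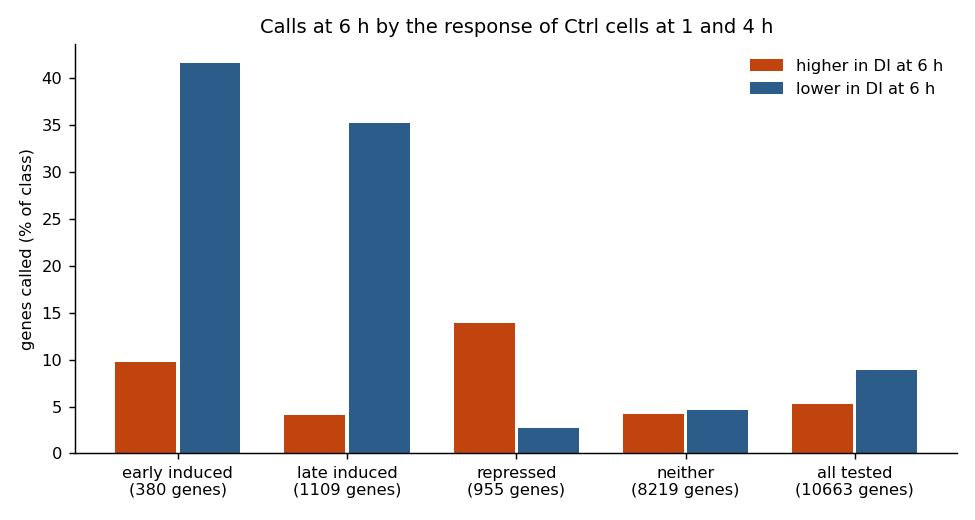
Share of genes (% of the class) called higher (orange) or lower (blue) in DI at 6 h, by how Ctrl cells respond to the stimulus at 1 and 4 h; bars start at 0 and the number of genes stands under each class. Lower genes make up 41.6% of the early induced and 35.3% of the late induced class, against 8.95% of all genes tested.

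The same comparison at earlier times, in other libraries, shows which calls were also made before the stimulus or shortly before 6 h. A gene not called at an earlier time may still have differed then, so the shares below do not count new differences. The comparison made 384 calls before the stimulus, then 521 at 1 h, 665 at 2 h, 1006 at 4 h and finally 1513 at 6 h. Of the 559 genes higher at 6 h, 113 (20.2%) were also higher at 0 h, which is 73.9% of the 153 higher then, and 235 (42.0%) were also higher at 4 h, which is 64.2% of 366. Of the 954 lower genes 154 (16.1%) were also lower at 0 h, or 66.7% of 231, and 419 (43.9%) also at 4 h, or 65.5% of 640. Differences called in opposite directions were few, with 1 higher and 3 lower genes of 6 h reversed at 0 h and 1 and 0 at 4 h.

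The size of the DI effect was tested for a change between 0 and 6 h. For 165 genes (1.55%) it differed, being more positive at 6 h for 61 (0.572%) and more negative for 104 (0.975%). The count was 61 without Ctrl replicate 2 at 0 h, 69 and 79 without Ctrl replicate 1 or 2 at 6 h, 90 without Ctrl replicate 1 at 0 h and 99 without DI replicate 2 at 6 h. In the NRF2 system 4 of the 82 tested genes differed, all more positive at 6 h: Gclc by 1.80 ± 0.45, Srxn1 by 1.83 ± 0.39, Slc48a1 by 1.85 ± 0.43 and Slc40a1 by 2.69 ± 0.46. Slc40a1 had 537 and 495 CPM in DI and 132 and 101 CPM in Ctrl at 0 h, so that at 6 h it was lower than at 0 h in both groups and further apart between them. Its 6 h value in Ctrl, 9.66 and 7.47 CPM, was the lowest of the 4 groups.

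Several inflammatory genes had effects more negative at 6 h than at 0 h. Ebi3 (−3.23 ± 0.39), Mmp13 (−3.47 ± 0.42), Saa3 (−3.68 ± 0.54), Stat5a (−3.43 ± 0.49), Tnfsf9 (−3.75 ± 0.65), Cd200 (−3.27 ± 0.59) and Stat3 (−1.73 ± 0.35) differed in this direction. Nfkbiz, in contrast, was already lower in DI at 0 h, with 4.59 and 4.03 CPM in DI and 35.3 and 35.6 CPM in Ctrl, and its change in effect was not called (0.52 ± 0.38, adjusted p = 0.69).

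Tnf (1.77 ± 0.39), Cxcl2 (1.76 ± 0.42), Cxcl10 (1.82 ± 0.36) and Cxcl1 (4.78 ± 1.01) had effects more positive at 6 h than at 0 h. For Cxcl10 this was a difference present at 0 h, 18.5 and 19.2 CPM in DI and 65.8 and 64.6 CPM in Ctrl, that was not seen at 6 h. For Cxcl1 the call was lost without DI replicate 2 at 0 h (3.56, adjusted p = 0.0898) or Ctrl replicate 2 at 0 h (3.79, adjusted p = 0.373), where it has hardly any reads. The amino acid transporter Slc43a2 also differed, by 3.08 ± 0.43.

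Between 4 and 6 h the effect changed detectably in 3 genes (0.0281%), all more positive at 6 h: Cxcl1 by 3.83 ± 0.55 and Cxcl2 by 2.90 ± 0.41 (adjusted p = 0.00175 for each), and Slc16a10 by 2.43 ± 0.44 (adjusted p = 0.0409). No gene was more negative in edgeR's test, while 936 of the 10663 had an unadjusted p under 0.05. Other settings also called more negative effects: the share of calls that were more positive was 40.0% of 30 with DESeq2, 66.7% of 3 with limma-voom, 40.7% of 27 with no filter on low counts and 40.0% of 5 without DI replicate 1 at 6 h. Slc16a10, a transporter of aromatic amino acids, had 98.6 and 80.9 CPM in DI and 13.6 and 14.6 CPM in Ctrl at 6 h, against 52.4 and 45.8 CPM in DI and 39.7 and 43.4 CPM in Ctrl at 4 h. Leaving out single libraries gave 2 to 39 calls, the most without DI replicate 1 at 4 h. The Slc16a10 call was lost without any of 6 single libraries, namely DI replicate 1 or either Ctrl replicate at 6 h and DI replicate 2 or either Ctrl replicate at 4 h (2.28 to 2.49, adjusted p 0.086 to 0.26). Without the second DI libraries of 2, 4 and 6 h together, Cxcl1 (3.77, adjusted p = 0.113) and Cxcl2 (2.53, adjusted p = 0.119) were not called either.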

How the data were processed

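RNA was measured by 3′ sequencing of barcoded libraries that were pooled by Actb and amplified for 12 PCR cycles, without molecular identifiers, per the labels' protocols. The authors deposited 1 table of raw read counts per gene for 20 libraries. STAR, HTSeq and DESeq2 were used with the mm10 build, per the submitters' processing notes; versions and options are not given in the sources used here. Groups came from the sample titles.

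From the counts, 10663 genes passed edgeR's filter by group. They were fitted in 1 model of 10 groups over all 20 libraries (edgeR 4.0.16, TMM factors, robust quasi-likelihood test, R 4.3.3), with Benjamini-Hochberg adjustment at 0.05. Levels are TMM-scaled CPM, read counts scaled to a common library size; marker sums are not TMM-scaled. Of 22165 gene IDs 21745 matched a symbol. Total counts ran from 3655977 to 5273860 at 6 h. Intervals, and floors of 3 counts, treat each read as a separate molecule and so understate counting error. Library complexity was estimated from genes at 0 among those expected at 4 to 12 reads. Promoters came from RefSeq's GRCm38.p6, in which 46 of 56 genes looked up were found.

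The gene lists and the comparison were chosen with earlier results of these data known. Named genes were the 12 largest changes in each direction among those reaching 20 CPM, a fixed panel, up to 5 per list, and the largest differences between times. Alternatives were other scalings and filters, limma-voom (limma 3.58.1), DESeq2 1.42.0, only the groups compared, a replicate block, estimated molecules and leaving out each library. The crossed pairing and leaving out 3 DI libraries together were added after seeing the data. The steps were run on counts simulated with fixed spreads and planted changes. The outcome is not given here and is no measure of false calls in these libraries. Some genes are not reported here.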

Additional observations from a re-analysis of the deposited data

Results flagged for a closer look

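The DI effect differed between 6 h and 0 h in 165 genes and between 6 h and 4 h in 3, each by a test of the difference itself in edgeR's model; many of the single-gene calls below depend on 1 library. Among effects more positive at 6 h than at 0 h, on the log2 scale, Bhlhe41 differed by 7.14, the RNA-binding protein gene Arid5a by 5.06, Cxcl1 by 4.78, Tmem86a by 4.34 and the lipid transporter gene Abcb4 by 3.74. Smaller differences of the same direction were 1.83 for Srxn1, 1.82 for Cxcl10, 1.80 for Gclc and 1.77 for Tnf. Among effects more negative at 6 h, Slamf1 differed by −5.95, Lrrc63 by −5.30, Fgfbp3 by −5.01, Il10 by −4.86 and Hif1a by −1.61. Against 4 h the differences were 3.83 for Cxcl1, 2.90 for Cxcl2 and 2.43 for Slc16a10. Without Ctrl replicate 2 at 0 h the Slamf1 call was lost (−5.62, adjusted p = 0.06), and without DI replicate 2 at 0 h its value was −1.33 (adjusted p = 0.992). For Arid5a no read was seen in either DI library at 0 h, against 1.76 and 2.01 CPM in Ctrl, so its fitted 5.06 is no exact difference; at 6 h it was lower in DI, with 24.2 and 20.7 CPM in DI and 75.1 and 42.1 CPM in Ctrl. That difference at 6 h was not called without DI replicate 2 (adjusted p = 0.0664) or Ctrl replicate 1 (adjusted p = 0.195). The change between times was not called for Arid5a without any of 5 single libraries (4.73 to 5.07, adjusted p 0.0562 to 0.23). It was not called for Abcb4 without Ctrl replicate 1 (adjusted p = 0.0517) or 2 (adjusted p = 0.0724) at 6 h, nor for Tmem86a without Ctrl replicate 2 at 6 h (3.65, adjusted p = 0.0562). Cxcl1 lost it without DI replicate 2 (adjusted p = 0.0898) or Ctrl replicate 2 (adjusted p = 0.373) at 0 h. Lrrc63 lost it without Ctrl replicate 1 at 6 h (adjusted p = 0.0597) or Ctrl replicate 2 at 0 h (adjusted p = 0.0952), and Fgfbp3 without any of 6 single libraries (−5.49 to −4.19, adjusted p 0.0724 to 0.205). For Il10 the call was lost without any of 6 single libraries, with values of −5.29 to −3.35 and adjusted p from 0.0595 to 0.317.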

How the results depend on the processing

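The 1513 calls at 6 h became 1158 to 1923 under other scalings, filters and tests; leaving out single libraries gave 750 to 1322 in all, 259 to 459 higher and 487 to 863 lower. The replicate numbers do not pair the samples by the labels, and the correlation of same-numbered deviations between DI and Ctrl at 6 h was −0.26. With a replicate block there were 1473 calls (539 higher, 934 lower) at 6 h, 155 for 6 h against 0 h and 3 for 6 h against 4 h; a crossed pairing gave 1522, 165 and 2. The 165 differences between 6 h and 0 h became 273 with no filter on low counts, 100 with limma-voom and quality weights, 335 with DESeq2 and 62 with only the groups compared, and 61 to 197 with single libraries left out. The 3 differences between 6 h and 4 h became 27 with no filter, 30 with DESeq2, 7 with estimated molecules and 0 without the second DI libraries of 2, 4 and 6 h, and 2 to 39 with single libraries left out. The causes of these shifts were not tested. Of 176 named genes called at 6 h, 123 kept the call under every alternative, 52 lost it under some left-out library and 0 reversed. Depth limits genes with few reads, and the lower complexity of DI libraries, which falls on 1 side of the comparison, makes zeros there less informative.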

Other observations

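Among genes of stress responses and housekeeping in DI cells at 6 h, few passed the test and most of those calls depended on single libraries. Of 31 proteasome genes 4 were higher and none lower, and 1 stayed called without Ctrl replicate 1 or without Ctrl replicate 2. Of 17 heat shock genes 3 were higher and 1 lower, and the lower call was lost without DI replicate 1 or Ctrl replicate 1. None of 18 genes of the endoplasmic reticulum stress response was higher and 1 was lower, a call lost without DI replicate 2, Ctrl replicate 1 or Ctrl replicate 2, while 1 was higher without DI replicate 1.

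Of 43 ribosomal protein genes 2 were higher and 1 lower. Without DI replicate 1 or DI replicate 2, 1 was higher and 0 lower, and without Ctrl replicate 1 or Ctrl replicate 2 none was called. Of 26 lysosomal genes 3 were higher and 2 lower, with 1 higher without DI replicate 1 or Ctrl replicate 2 and 0 without Ctrl replicate 1. Of 23 cholesterol genes 2 were higher and 3 lower, with 1 higher without Ctrl replicate 1. Of 23 cell cycle genes 2 were higher and 3 lower. Their median log2 fold change was −1.24, but −2.19 (5 lower) without DI replicate 1 and −0.72 without DI replicate 2, and −0.42 over the 13 members tested with only the groups compared. Without DI replicate 2 or Ctrl replicate 2, 1 was higher. Of 9 metallothionein and zinc transporter genes 3 were higher and 2 lower, with 0 lower without DI replicate 2 or Ctrl replicate 1 and 1 without Ctrl replicate 2. Over all genes tested 5.24% were higher and 8.95% lower.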
